A study of Mus musculus with 70 samples.

Results

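Cxcl9, Cxcl10, Cxcl16, Ccl5 and Ccl22 are the 5 chemokine genes described here, chosen by their symbols among 55487 named lines in each of 4 count tables, and all 5 symbols were found in every table. Chemokines are small secreted proteins that steer leukocytes along a gradient through receptors on the cell surface. Cxcl9 and Cxcl10 are induced by interferons and bind Cxcr3, which is carried by activated CD8+ T cells, Th1 cells and NK cells. Cxcl16 is made as a transmembrane protein, can be released by shedding, and binds Cxcr6 on effector and tissue-resident T cells. Ccl5 binds several receptors, among them Ccr1 and Ccr3, and besides myeloid cells it is made in large amounts by NK cells and effector T cells themselves. Ccl22 is a product of dendritic cells and macrophages and draws Ccr4+ cells, among them regulatory T cells.

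The libraries came from bilateral flank tumors of B16F10, a mouse melanoma line, in young male and female C57BL/6 mice that received sham ablation (control) or partial histotripsy, a non-thermal focused ultrasound that breaks tissue mechanically, on 1 side. Histotripsy-treated libraries came from the insonated tumor, and histotripsy-abscopal libraries from the same animals' other, uninsonated tumor. CD45+ (blood-derived) and CD45- (melanoma and other) cells were sorted 3 or 7 days later. Day 3 gave 4 control, 6 treated and 7 abscopal libraries of CD45+ cells and 4, 7 and 7 of CD45- cells. Day 7 gave 10, 3 and 4 of CD45+ cells and 11, 3 and 4 of CD45- cells. The labels do not say which libraries came from the same mouse or tumor, nor that replicates are separate animals, so p-values measure the spread between these libraries only. All tumors were grown from 1 implanted line.

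Library totals ran from 887798 to 3820705 counts over the 70 libraries. Ptprc, which encodes CD45, had 0 to 3 counts in each CD45- library and group means between 849 and 987 CPM (counts per 1000000 counts of the library total) in CD45+ cells. The 8 melanoma markers summed to between 23826 and 37306 CPM in CD45- libraries and to between 91.5 and 2310.3 CPM in CD45+ libraries. Of 12 T cell markers, 10 had at most 3 counts in every CD45- library. Because the libraries were primed at the 3' end, CPM were not divided by transcript length.

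Cxcl9 (chr5:92321347-92328079, minus strand, GRCm38) and Cxcl10 (chr5:92346638-92348889, minus strand) are neighbors with 18558 bases between them. Cxcl16 (chr11:70453983-70459984) and Ccl5 (chr11:83525778-83530518) lie on the minus strand, and Ccl22 (chr8:94745590-94751699) on the plus strand. All are annotated as protein coding, and the 5' end of Cxcl16 overlaps Zmynd15 on the opposite strand. RefSeq promoter windows of GRCm38.p6, which run from 250 bases before to 50 bases after the start, were at hand for Cxcl9, Cxcl10 and Ccl22. The pair of Cxcr3 ligands is shown since both are interferon-induced neighbors whose CD45- levels are set side by side in what follows, each 5' to 3' on the gene's strand, with matches to the interferon-stimulated response element (GAAA, 2 bases of any kind, GAAA) and to the NF-kB consensus in capitals.
Cxcl10, chr5:92348840-92349139: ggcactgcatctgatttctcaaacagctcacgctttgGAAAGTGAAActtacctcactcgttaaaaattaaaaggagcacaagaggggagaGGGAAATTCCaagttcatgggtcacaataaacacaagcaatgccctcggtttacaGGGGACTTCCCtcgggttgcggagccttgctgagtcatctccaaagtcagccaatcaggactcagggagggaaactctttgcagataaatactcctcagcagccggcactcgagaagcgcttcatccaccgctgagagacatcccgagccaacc
Cxcl9, chr5:92328030-92328329: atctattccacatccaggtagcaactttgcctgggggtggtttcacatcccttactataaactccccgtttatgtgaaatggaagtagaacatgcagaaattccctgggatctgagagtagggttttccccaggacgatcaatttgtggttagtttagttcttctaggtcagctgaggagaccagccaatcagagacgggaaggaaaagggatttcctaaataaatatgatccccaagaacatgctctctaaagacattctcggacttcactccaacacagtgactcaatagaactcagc
In the Cxcl10 window the interferon-stimulated response element matched from 213 to 204 bases upstream of the start, and the NF-kB consensus matched from 159 to 150 bases upstream and in overlapping matches between 104 and 94 bases upstream. Neither motif, nor the STAT dimer letters TTCNNNGAA, matched the Cxcl9 or the Ccl22 window on either strand. Over 32851 promoter windows, 3.44% held the interferon-stimulated response element, 8.46% the NF-kB consensus and 8.30% TTCNNNGAA on 1 strand or the other.

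All 5 chemokine genes were higher in CD45+ than in CD45- cells in each of the 6 groups, and all 30 of these differences were called by edgeR's quasi-likelihood test (adjusted p between 3.93e-32 and 2.15e-05). The background is broad, since the genes called higher in CD45+ cells made up 34.5% of those tested in control, 39.9% in treated and 39.8% in abscopal tumors on day 3, and 41.7%, 34% and 35.7% in the same order on day 7. The median log2 fold change of the 5 genes lay between 6.31 and 7.71 over the groups, where the median of all genes tested lay between 0.01 and 0.05.

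Cxcl10 had log2 fold changes from 2.27 in histotripsy-treated tumors on day 3 (SE 0.29, 95% interval 1.69 to 2.85) to 3.85 in histotripsy-treated tumors on day 7 (SE 0.47). It was counted in every CD45- library, at 2.66 to 44.0 CPM, against 53.7 to 187 CPM in CD45+ libraries. The Cxcl9 estimates ran from 2.96 (SE 0.58) in histotripsy-treated tumors on day 3 and 3.12 (SE 0.57) in histotripsy-abscopal tumors on day 7 to 6.30 (SE 0.47) in control tumors on day 7. The lower 2 estimates moved with single libraries, to 3.85 without CD45- treated replicate 1 of day 3 and to 4.59 without CD45- abscopal replicate 1 of day 7, and both stayed called in every fit with 1 library left out. On day 3, the Cxcl9 levels of the 2 fractions overlapped in histotripsy-treated tumors, where 4 of 6 CD45+ libraries lay above all 7 CD45- libraries. Over the other 29 combinations of gene and group, no CD45- library reached the lowest CD45+ library. The share of all genes that separate the fractions in this way is not given here.

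Cxcl16 was higher in CD45+ cells by 6.31 to 7.71 and Ccl5 by 6.84 to 8.88 on the log2 scale. Cxcl16 had 88.4 to 238 CPM in CD45+ libraries, and 24 of the 36 CD45- libraries had at most 3 counts of it. Ccl5 had 297 to 1283 CPM in CD45+ libraries and 0.83 to 12.9 CPM in CD45- libraries. Ccl22 had 9.06 to 74.1 CPM in CD45+ libraries and was at 0 counts in 34 of 36 CD45- libraries, with 1 count in each of the other two. Set against a floor of 3 counts over the group, pooled Ccl22 was at least 109-fold higher in CD45+ cells in control tumors of day 3, 171-fold in treated and 156-fold in abscopal tumors of that day, and at least 106-fold higher in abscopal tumors of day 7. With 1 CD45- count each on day 7, the pooled ratio was 863 in control (exact counting interval 154 to 34128) and 401 in histotripsy-treated tumors (71.5 to 15895). Intervals and floors cover counting error only.

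**Figure D1:**
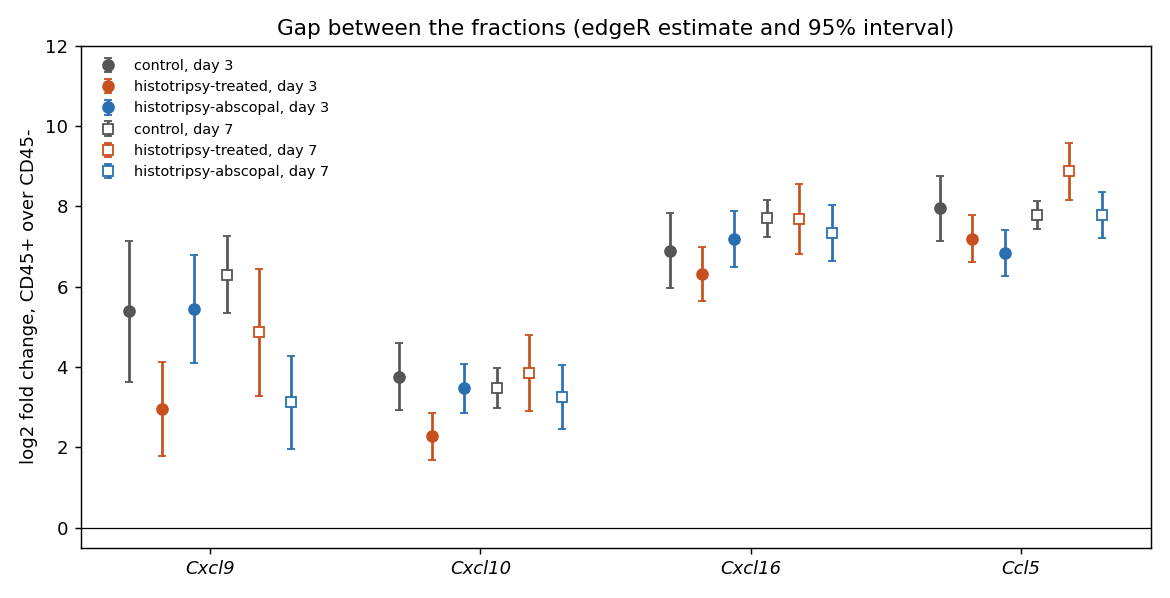
The log2 fold change of CD45+ over CD45- libraries (vertical axis) is plotted for Cxcl9, Cxcl10, Cxcl16 and Ccl5, as the edgeR estimate with its 95% interval for each tumor group and day. Every interval lies above 0, Cxcl10 stays between 2.27 and 3.85, Cxcl9 spreads from 2.96 to 6.30, and Cxcl16 and Ccl5 lie above 6.

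Within the CD45+ fraction, none of the 5 genes was called in any comparison of tumor groups. On day 3 this stood beside 7.8% of genes called between histotripsy-treated and control tumors, 0% between histotripsy-abscopal and control tumors and 5.44% between treated and abscopal tumors. On day 7, 0%, 0% and 0% of genes were called in the same comparisons. Of the 5 genes, unadjusted p was under 0.05 for 1, 0 and 0 on day 3 and for 1, 1 and 1 on day 7, and DESeq2 called none of them in these comparisons. Over all genes, the same cut took 2457, 796 and 1918 of 10264 on day 3. It took 344, 800 and 290 of 10817 on day 7.

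**Figure D2:**
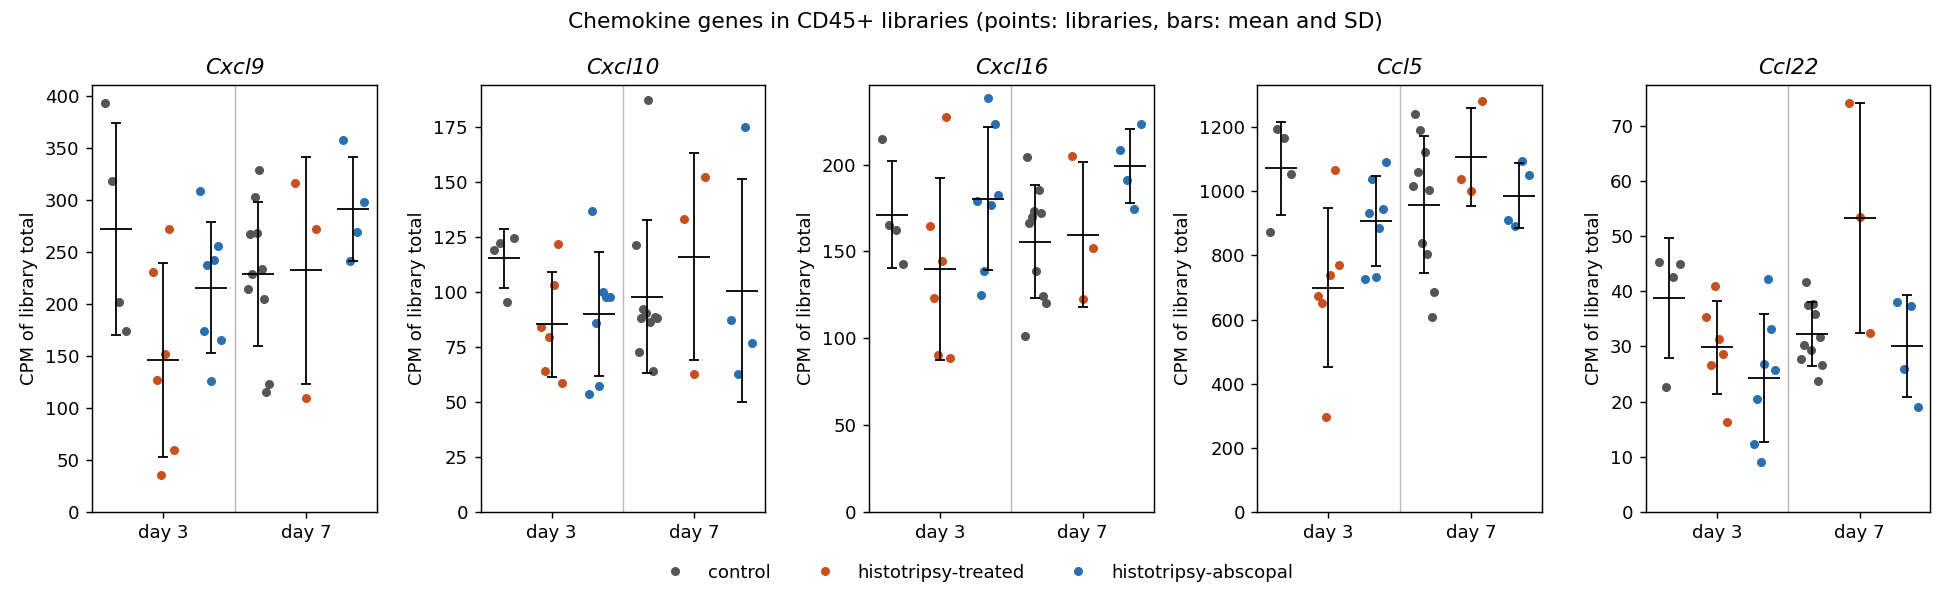
CPM of the library total (vertical axis) is plotted for each gene in the 34 CD45+ libraries by day and tumor group, with points for libraries and bars for the mean and SD. Groups overlap in every panel, and the lowest Cxcl9 and Ccl5 points, at 35.6 and 297 CPM, are the same histotripsy-treated library of day 3.

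The Cxcr3 ligands in CD45+ cells on day 3 were led by Cxcl9. Cxcl9 was at 393, 318, 202 and 174 CPM in the control libraries, at 35.6 (lowest), 139 (median) and 272 CPM (highest) in the histotripsy-treated libraries and at 126, 237 and 309 CPM in the histotripsy-abscopal libraries. The treated libraries reached further down than the other 2 groups but overlapped both. On day 7 Cxcl9 averaged 229 ± 69.5 CPM (SD, n = 10) in control, 232 ± 109 CPM (n = 3) in treated and 291 ± 49.8 CPM (n = 4) in abscopal tumors, and the order of the 3 groups was not resolved beyond the spread. Cxcl10 means ran from 85.3 ± 23.9 CPM (n = 6) in histotripsy-treated tumors on day 3 to 116 ± 47.1 CPM (n = 3) in histotripsy-treated tumors on day 7, with control tumors at 115 ± 13.5 (n = 4) on day 3 and 97.9 ± 34.7 CPM (n = 10) on day 7. Its groups overlapped on both days.

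Cxcl16 had CD45+ means of 171 ± 30.7 (control, n = 4), 140 ± 52.4 (histotripsy-treated, n = 6) and 180 ± 41.0 CPM (histotripsy-abscopal, n = 7) on day 3. On day 7 the histotripsy-abscopal libraries were at 208, 191, 174 and 223 CPM, where the 10 control libraries had a lowest value of 101, a median of 168 and a highest value of 205 CPM. The upper 2 abscopal libraries lay above all controls, and the difference of 0.39 on the log2 scale (SE 0.16, 95% interval 0.05 to 0.73) was not called (adjusted p = 0.621). The histotripsy-treated libraries of day 7 were at 205, 122 and 152 CPM, the highest of them level with the highest control. Between abscopal and control CD45+ cells of day 7, monocyte and macrophage markers had a median log2 fold change of 0.39 and neutrophil markers of -0.87. None of either list was called, and their part in the Cxcl16 level was not tested.

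Ccl5 was at 874, 1195, 1166 and 1055 CPM in the CD45+ control libraries of day 3 and at 297 (lowest), 707 (median) and 1066 CPM (highest) in the histotripsy-treated libraries. Of the 6 treated libraries 5 lay below all 4 controls, and the log2 fold change of -0.43 (SE 0.20, 95% interval -0.83 to -0.02) did not pass the threshold (adjusted p = 0.188). Without the lowest treated library it was -0.30 (adjusted p = 0.289). The histotripsy-abscopal libraries, at 726 (lowest), 932 (median) and 1093 CPM (highest), overlapped both groups. On day 7 Ccl5 averaged 958 ± 214 CPM (n = 10) in control, 1108 ± 153 CPM (n = 3) in treated and 987 ± 101 CPM (n = 4) in abscopal tumors, and the groups overlapped.

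Ccl22, the Ccr4 ligand, was highest on average in the CD45+ cells of treated tumors on day 7. It was at 74.1, 53.5 and 32.4 CPM in the CD45+ histotripsy-treated libraries, at 38.1, 25.9, 37.3 and 19.0 CPM in the histotripsy-abscopal libraries and at 23.7 (lowest), 31.0 (median) and 41.7 CPM (highest) in the 10 control libraries. Of 3 treated libraries 2 lay above every control and abscopal library, and the third lay among them. The log2 fold change was 0.71 against control (SE 0.21, 95% interval 0.28 to 1.15, adjusted p = 0.9999) and 0.77 against histotripsy-abscopal tumors (SE 0.26, adjusted p = 0.9998), so neither was called among all genes tested. Without the highest treated library the first estimate was 0.35. Dendritic cell markers summed to 505 to 748 CPM in these treated, 473 to 720 CPM in abscopal and 439 to 608 CPM in control libraries. Of the 9 markers 0 were called against control, and their part in the Ccl22 level was not tested. On day 3 Ccl22 averaged 38.8 ± 10.9 CPM (n = 4) in control, 29.8 ± 8.43 CPM (n = 6) in treated and 24.3 ± 11.5 CPM (n = 7) in abscopal tumors, with overlap between the groups.

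Markers of other leukocytes moved in the same day 3 comparison. Of 8 neutrophil markers 6 were called higher in histotripsy-treated than in control CD45+ cells, and their sum ran from 1629 to 27753 CPM in treated and from 530 to 2973 CPM in control libraries. Of 12 T cell markers 3 were called lower (sums of 629 to 2340.5 against 2525 to 3185 CPM), and of 8 NK cell markers 1 (237 to 1467 against 1117 to 1516 CPM). The library with 35.6 CPM of Cxcl9 and 297 CPM of Ccl5 had 27753 CPM of neutrophil and 237 CPM of NK cell markers, the highest and the lowest of the group. In bulk libraries, fewer cells of a type and less RNA per cell cannot be told apart, and the part of these shifts in the chemokine levels was not tested. With library totals in place of TMM scaling, the median of all genes shifted to -0.22 and the split of higher against lower calls turned from 638 and 163 to 414 and 663, while the members called remained 0.

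Within the CD45- fraction Cxcl9, Cxcl10 and Ccl5 passed the filter on low counts, and 1 difference was called. Cxcl9 was higher in histotripsy-abscopal than in control tumors on day 7, where 0.291% of genes were called. Called genes made up 0.0916% between treated and control, 0% between abscopal and control and 0.147% between treated and abscopal tumors on day 3, and 0% between treated and control and 0% between treated and abscopal tumors on day 7. In these 5 comparisons none of the 3 genes was called by edgeR or DESeq2, with unadjusted p under 0.05 for 1, 1 and 2 on day 3 and 1 and 2 on day 7. Over all genes, the same cut took 1154, 567 and 1474 of 10921 on day 3. It took 668 and 741 of 10996 on day 7.

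**Figure D3:**
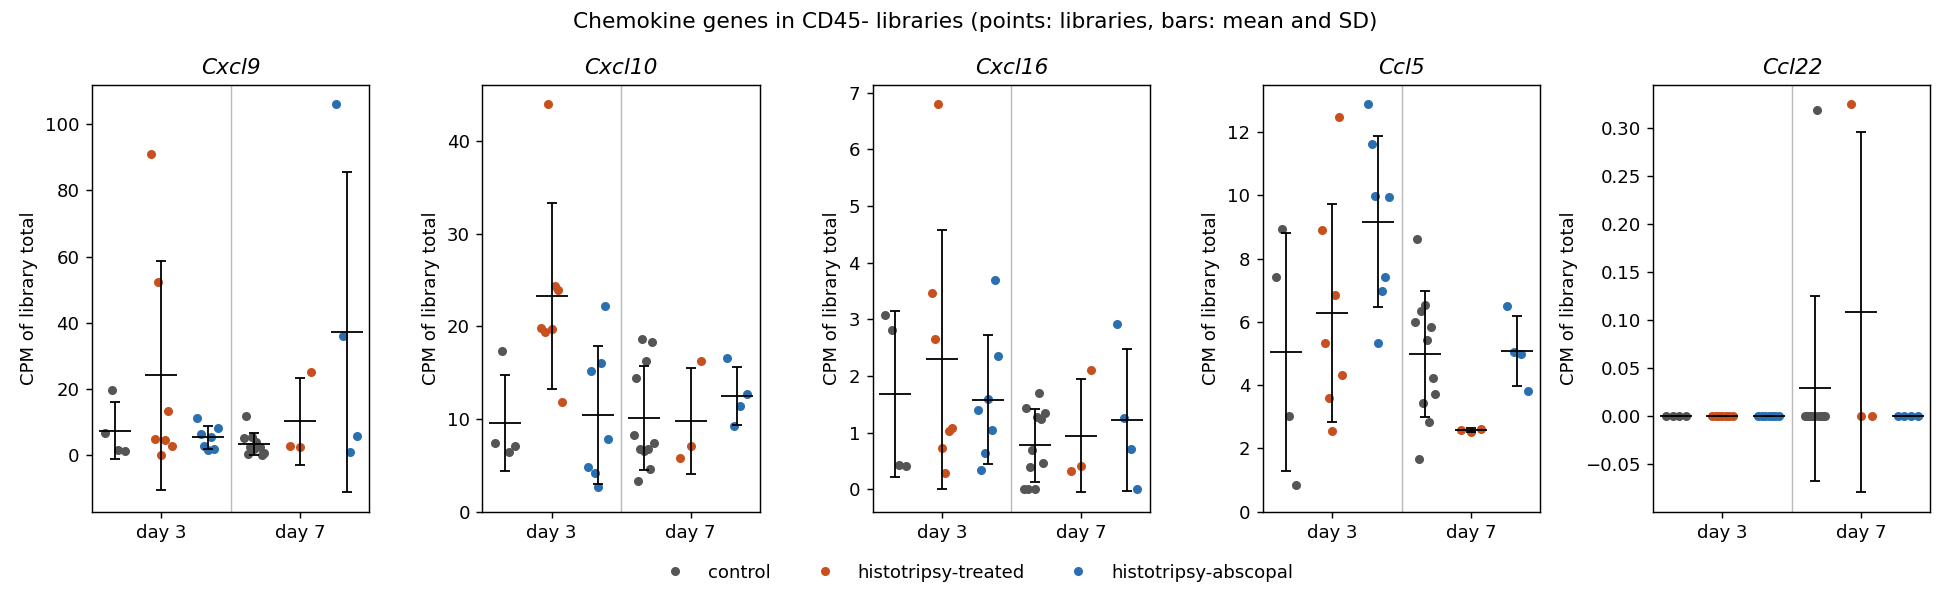
CPM of the library total (vertical axis, a separate scale for each gene) is plotted in the 36 CD45- libraries by day and tumor group, with points for libraries and bars for the mean and SD. Of the 4 histotripsy-abscopal Cxcl9 libraries of day 7, 2 lie at 106 and 36.1 CPM above all controls, and Ccl22 stays at or below 1 count per library.

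Cxcl9 was at 106, 36.1, 1.07 and 5.71 CPM in the histotripsy-abscopal CD45- libraries of day 7 (326, 86, 3 and 9 counts), and at 0 (lowest), 2.502 (median) and 11.99 CPM (highest) in the 11 control libraries. The first 2 abscopal libraries lay above every control and the other two lay within their range. The log2 fold change was 3.51 (SE 0.69, 95% interval 2.08 to 4.94, adjusted p = 0.0282). The call rested on those libraries. It was 2.08 (adjusted p = 0.709) without replicate 1 and 3.54 (adjusted p = 0.0959) without replicate 2, it passed in 6 of 15 fits that each left out 1 library, and DESeq2 gave 3.41 (adjusted p = 0.126). Leaving out control replicate 3, 4, 6, 8, 9, 10 or 11 also ended the call, with adjusted p between 0.0522 and 0.0634.

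Fibroblast markers were high in the same libraries. The 6 fibroblast genes (Col1a1, Col1a2, Col3a1, Dcn, Pdgfra and Lum) summed to 2478, 1365, 70.1 and 439 CPM in abscopal replicates 1 to 4, and to between 16.9 and 694 CPM in the controls. Cxcl12, a chemokine of stromal cells, was the other listed ligand called there (log2 fold change 3.85, SE 0.75, adjusted p = 0.0282), with 1.78 to 43.6 CPM in abscopal and 0 to 5.75 CPM in control libraries, and its call was likewise kept in 6 of 15 fits with 1 library left out. The Cxcl12 estimate was 2.97 (adjusted p = 0.709) without abscopal replicate 1, and DESeq2 did not call it (adjusted p = 0.101). In this comparison the log2 fold changes of the 6 fibroblast genes had a median of 2.81, where the median of all genes tested was -0.01. The edgeR test called 0 of the 6, with unadjusted p under 0.05 for 5, beside 1051 of 10996 genes tested. The 3 endothelial markers tested had a median of 2.18, with 0 called and unadjusted p under 0.05 for 2. The part of either list in the Cxcl9 difference was not tested. The 3 histotripsy-treated libraries of day 7 had 2.92, 2.52 and 25.2 CPM of Cxcl9 beside 202, 85.3 and 4029 CPM of fibroblast markers. Their log2 fold change of Cxcl9 against abscopal tumors was -2.01 (SE 0.92, adjusted p = 0.721), which was not called. It was -0.56 without abscopal replicate 1 and -3.72 without treated replicate 3.

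On day 3 the interferon-induced pair had its highest CD45- means in histotripsy-treated tumors. Cxcl10 was at 7.40, 17.4, 6.46 and 7.07 CPM in the control libraries, at 11.9 (lowest), 19.8 (median) and 44.0 CPM (highest) in the 7 treated libraries and at 2.66, 7.85 and 22.2 CPM in the 7 abscopal libraries. Of 7 treated libraries 6 lay above all controls. The log2 fold change was 1.28 against control (SE 0.45, 95% interval 0.34 to 2.22, adjusted p = 0.298) and 1.23 against histotripsy-abscopal tumors (SE 0.37, 95% interval 0.47 to 1.99, adjusted p = 0.137), and neither passed the threshold.

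Cxcl9 in the same libraries was more scattered. It was at 91.0, 4.94, 52.3, 0, 4.58, 13.5 and 2.70 CPM in the treated libraries, at 6.79, 19.7, 1.72 and 1.25 CPM in the controls and at 1.60 (lowest), 5.57 (median) and 11.1 CPM (highest) in the abscopal libraries. Of the treated libraries 2 lay above every control and 4 lay below the highest abscopal library. The difference from abscopal tumors was 2.04 on the log2 scale (SE 0.80, 95% interval 0.37 to 3.70) and was not called (adjusted p = 0.252). It ran from 1.16 to 2.28 over fits with 1 library left out. The 2 libraries with 91.0 and 52.3 CPM had 5803 and 13338 CPM of fibroblast markers, and the library at 0 had 56.3 CPM, the lowest of the group.

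Ccl5 stayed below 13 CPM in every CD45- library. On day 3 it was at 7.40, 8.92, 3.02 and 0.83 CPM in the controls and at 5.32 (lowest), 9.95 (median) and 12.9 CPM (highest) in histotripsy-abscopal tumors, a log2 fold change of 0.95 (SE 0.45, adjusted p = 0.959). On day 7 the 3 histotripsy-treated libraries were at 2.60, 2.52 and 2.63 CPM, below all 4 abscopal libraries at 6.50, 5.04, 4.98 and 3.81 CPM, with 5 to 8 counts behind each treated value. The log2 fold change was -0.92 against abscopal tumors (SE 0.44, adjusted p = 0.736) and -0.88 against control tumors (SE 0.39, adjusted p = 0.804). Neither was called, and the treated values lay within the control range of 1.68 to 8.63 CPM. Cxcl16 group means in CD45- cells were between 0.78 and 2.29 CPM and were not tested.

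**Figure D4:**
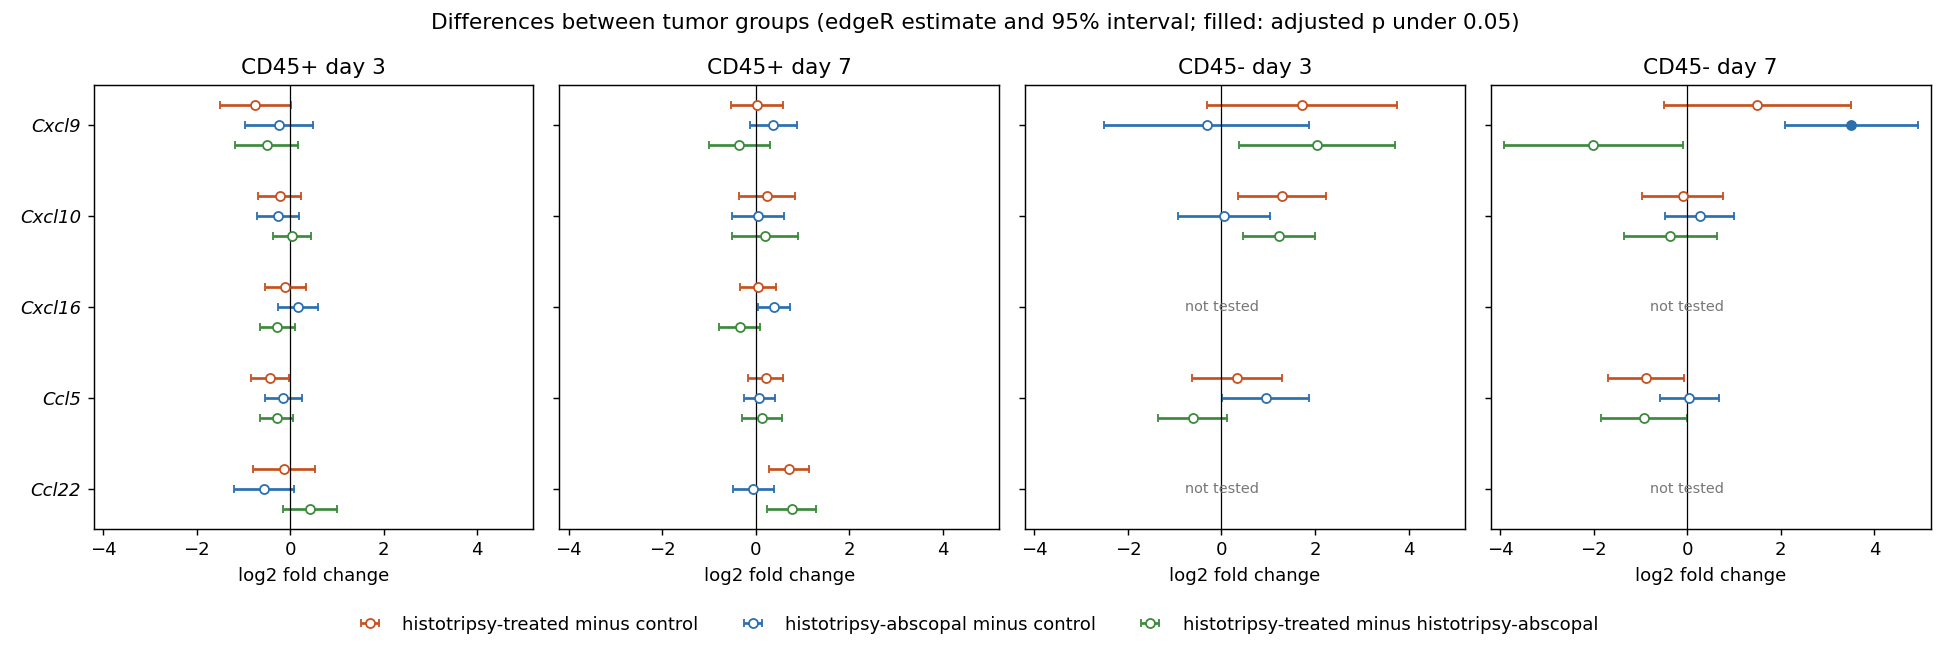
The log2 fold change (horizontal axis) between tumor groups is plotted with its 95% interval for each gene, fraction and day, filled where the adjusted p was under 0.05. The only filled point is Cxcl9 in CD45- cells on day 7, histotripsy-abscopal against control, at 3.51.

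A change in the effect of ablation from day 3 to day 7 was tested as an interaction within each fraction. No member was called. For the treated effect, 2.7% of genes were called in CD45+ and 0% in CD45- cells, and for the abscopal effect 0% and 0.00866%. Unadjusted p was under 0.05 for 2 and 1 members in the treated and 0 and 1 in the abscopal interaction, and DESeq2 called none. Over all genes, the same cut took 1775 of 11251 and 695 of 11548 in the treated interaction. In the abscopal interaction it took 733 of 11251 and 793 of 11548. In CD45+ cells the treated effect on day 7 exceeded that on day 3 by 0.86 for Ccl22 (SE 0.39, adjusted p = 0.274) and by 0.66 for Ccl5 (SE 0.27, adjusted p = 0.204) on the log2 scale. In CD45- cells the same difference was -1.37 for the treated effect on Cxcl10 (SE 0.66, adjusted p = 0.813) and 3.80 for the abscopal effect on Cxcl9 (SE 1.40, adjusted p = 0.613). The Cxcl9 value ran from 2.39 to 4.21 over fits with 1 library left out.

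Whether the treated effect differed between the fractions was tested likewise, with 1.91% of genes called on day 3 and 0% on day 7 and no member called by edgeR or DESeq2. Unadjusted p was under 0.05 for 2 members on day 3 and 1 on day 7, beside 2001 of 12392 and 623 of 12863 genes tested. On day 3 the effect in CD45+ cells minus that in CD45- cells was -1.49 for Cxcl10 (SE 0.50, adjusted p = 0.113) and -2.42 for Cxcl9 (SE 1.02, adjusted p = 0.224), the latter between -3.75 and -1.55 over fits with 1 library left out. On day 7 the difference was 1.09 for Ccl5 (SE 0.42, adjusted p = 0.929). Ccl22, with no CD45- counts on day 3, gives no usable interaction there.

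The receptors of these ligands were read from the same CD45+ libraries. Cxcr6, the Cxcl16 receptor, fell in histotripsy-treated tumors on day 3, with a log2 fold change of -1.23 against control (SE 0.25, adjusted p = 0.00483) and -0.97 against histotripsy-abscopal tumors (SE 0.22, adjusted p = 0.0103). Its mean was 53.0 ± 22.6 CPM (n = 6) in treated, 142 ± 35.6 CPM (n = 4) in control and 111 ± 26.9 CPM (n = 7) in abscopal tumors. The highest treated library, at 83.7 CPM, lay below the lowest control at 106 CPM and the lowest abscopal library at 84.9 CPM, and the call held in all 10 and all 13 fits with 1 library left out. Cxcl16 itself was not called in either comparison. Of 12 T cell markers, 3 were called lower against control and 2 against abscopal tumors, beside 163 and 58 of 10264 genes. Their part in the Cxcr6 fall was not tested. Cxcr6 had 0 counts in all 36 CD45- libraries.

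Of the receptors of Ccl5, Ccr1 rose in histotripsy-treated tumors on day 3 against control (1.48, SE 0.35, adjusted p = 0.0139) and abscopal tumors (1.45, SE 0.29, adjusted p = 0.0047), and Ccr3 rose against control (2.33, SE 0.57, adjusted p = 0.0161). Against control each call was kept in 9 of 10 fits with 1 library left out and lost without control replicate 2 for Ccr1 (adjusted p = 0.0508) and without control replicate 4 for Ccr3 (adjusted p = 0.0519). With only the compared groups in the fit the Ccr1 call was lost as well (adjusted p = 0.0543). Both receptors are known from granulocytes and other myeloid cells. The rise of neutrophil markers given above was in the same libraries, and its part in the Ccr1 and Ccr3 levels was not tested. Cxcr3 had CD45+ means of 20.6 to 36.3 CPM and Ccr4 of 0.92 to 2.26 CPM over the 6 groups. Cxcr3 was called in no comparison of tumor groups and in no day interaction, and Ccr4 was too low to be tested in them.

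Of the 49 other genes of the pathway 38 were tested in CD45+ cells on day 3, and 4 rose and 2 fell in histotripsy-treated against control tumors, while 4 rose and 1 fell against histotripsy-abscopal tumors. Of all genes tested, 7.8% and 5.44% were called in these comparisons. The median log2 fold change of the 38 was 0.15 and 0.25, where that of all genes tested was -0.01 and -0.03. Among ligands that share a receptor with a member, Ccl3 was called and the other 5 of 6 were not. Ccl3, a ligand of Ccr1, rose from 962 ± 316 CPM (n = 4) in control to 2427 ± 898 CPM (n = 6) in treated tumors (log2 fold change 1.62, SE 0.31, adjusted p = 0.00398), and by 1.68 against abscopal tumors (SE 0.26, adjusted p = 8.62e-04). Of 7 NF-kB inputs, Nfkbia, an inhibitor induced by NF-kB, rose against control (1.01, SE 0.26, adjusted p = 0.021, kept in 8 of 10 fits with 1 library left out and 0.0835 without control replicate 3), a call also lost with only the compared groups in the fit (adjusted p = 0.0733) and with the replicate block (adjusted p = 0.0878). Nfkbia (1.21, SE 0.22) and Tnf (1.41, SE 0.27) rose against abscopal tumors. Dpp4, a protease that trims Cxcl9 and Cxcl10, fell against control (-0.78, SE 0.24, adjusted p = 0.0494), a call kept in 1 of 10 fits with 1 library left out and lost with only the compared groups in the fit (adjusted p = 0.0592) and with the replicate block (adjusted p = 0.12). The replicate block kept only libraries whose number occurred in both groups, 4 of each. Irf8, a transcription factor of myeloid development, had a treated effect 0.71 higher on day 7 than on day 3 (SE 0.20, adjusted p = 0.0414, kept in 8 of 23 fits with 1 library left out). In the same interaction the difference was -1.77 for Ccl3 (SE 0.47, adjusted p = 0.0305, kept in 17 of 23 such fits). Without treated replicate 1 of day 7 neither was called (adjusted p = 0.136 for Irf8 and 0.141 for Ccl3).

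Across libraries, with the mean of each group and day removed, the members followed different genes. The 3 most similar genes in 34 CD45+ libraries, by Pearson's r on log2 CPM among 8235 genes, were Slamf8 (0.89), Zbp1 (0.86) and Slamf7 (0.84) for Cxcl9 and Ifi205 (0.80), Mob1b (0.71) and Bzw1 (0.69) for Cxcl10. For Cxcl16 they were C1qa (0.78), Axl (0.78) and Myo1g (0.77), and for Ccl5 AW112010 (0.91), Gm19585 (0.91) and Ms4a4b (0.89). For Ccl22 they were Adprh (0.69), Snx6 (0.68) and Flrt3 (0.67). In 36 CD45- libraries, among 8208 genes, Cxcl9 was closest to Fbln2 (0.90), Adgrd1 (0.90) and Ly6a (0.90), Cxcl10 to Cp (0.80), Herc6 (0.76) and Irf8 (0.67), and Ccl5 to Crlf2 (0.68), Emp3 (0.67) and 4930402H24Rik (0.67). C1qa is a macrophage complement gene, Zbp1 and Herc6 are interferon-induced, and Fbln2 is an extracellular matrix gene of stromal cells.

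The same residuals were set against the summed marker lists and each other in 58 relations, with two-sided permutation within groups and Benjamini-Hochberg adjustment. In CD45- cells Cxcl9 followed fibroblast markers (Pearson r = 0.89, Spearman rho = 0.87, n = 36, adjusted permutation p = 0.000193 and 0.00029), and r was 0.85 without the 2 libraries farthest from the median of the markers, 0.88 on day 3 and 0.89 on day 7. In CD45+ cells Ccl5 followed NK cell markers (r = 0.90, rho = 0.71, n = 34, adjusted permutation p = 0.000193 and 0.00155), with r = 0.79 without the 2 farthest libraries, 0.91 on day 3 and 0.88 on day 7. Ccl5 also followed T cell markers (r = 0.78, rho = 0.54, adjusted permutation p = 0.00116 and 0.0218), with r = 0.59 without the 2 farthest libraries, 0.88 on day 3 and 0.66 on day 7, and Cxcl9 followed NK cell markers (r = 0.78, rho = 0.58, adjusted permutation p = 0.00029 and 0.0087), with r = 0.66, 0.78 and 0.80 in the same order. Some of the NK cell markers, such as Prf1 and Klrk1, are shared with CD8+ T cells. Cxcl9 was inverse to neutrophil markers (r = -0.83, rho = -0.80, adjusted permutation p = 0.000193 and 0.00029), with r = -0.74 without the 2 farthest libraries, -0.88 on day 3 and -0.73 on day 7. So was Cxcl16 (r = -0.58, rho = -0.55, adjusted permutation p = 0.0163 and 0.0186), with r = -0.43 without the 2 farthest libraries. Relations that passed for r alone, such as Ccl5 with neutrophil markers (r = -0.53, adjusted permutation p = 0.0485), are otherwise not listed. Ccl22 followed dendritic cell markers (r = 0.53, rho = 0.63, adjusted permutation p = 0.02 and 0.00545), with r = 0.62 without the 2 farthest libraries, 0.47 on day 3 and 0.65 on day 7. Cxcl10 passed the adjustment with none of the lists in either fraction. All values are shares of 1 library total, so a list that takes more of a library lowers the rest.

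Between members in CD45+ cells, Cxcl9 and Cxcl16 varied together (r = 0.66, rho = 0.59, n = 34, adjusted permutation p = 0.00938 and 0.0133, r = 0.54 without the 2 farthest libraries, 0.69 on day 3 and 0.62 on day 7). Cxcl9 and Cxcl10, which share a receptor, had r = 0.36 (rho = 0.40, n = 34, adjusted permutation p = 0.126 and 0.0994, r = 0.34 without the 2 farthest libraries) and did not pass. In CD45- cells Cxcl9 and Ccl5 varied together (r = 0.53, rho = 0.60, n = 36, adjusted permutation p = 0.0113 and 0.00545, r = 0.45 without the 2 farthest libraries).

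**Figure D5:**
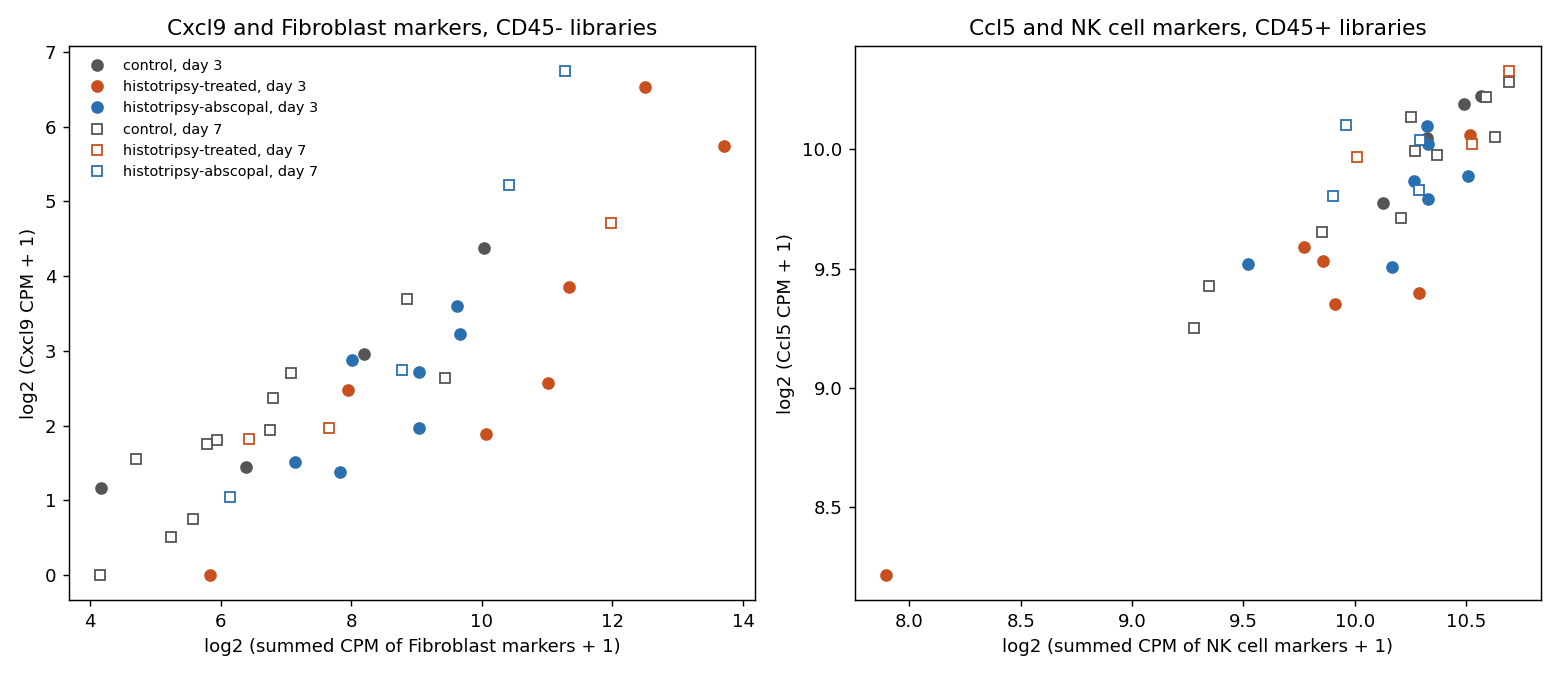
The left panel plots Cxcl9 against the summed CPM of 6 fibroblast markers in 36 CD45- libraries and the right panel Ccl5 against the summed CPM of 8 NK cell markers in 34 CD45+ libraries, each as log2 of the value plus 1, colored by tumor group and with symbols by day. Both pairs rise together, and in the right panel 1 histotripsy-treated library of day 3, with 297 CPM of Ccl5, lies far below the rest.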

How the data were processed

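The authors trimmed QuantSeq reads with Trim Galore 0.5.0, aligned them to GRCm38 with STAR 2.6.0, collapsed unique molecular identifiers, counted reads per gene with featureCounts and deposited whole-number counts without normalization. The strand setting of the counting is not given in the sources used here. Each fraction and day had its own table of 55487 named lines. An unnamed line in both CD45+ tables equaled 100% of the column totals and was left out. Of the tables' columns, 0 had no sample. Every 2 libraries of a group differed beyond counting noise, so each counted as 1 sample.

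Counts were tested with edgeR 4.0.16 in R 4.3.3 (TMM, filterByExpr with a minimum count of 10 and total of 15, quasi-likelihood test, Benjamini-Hochberg adjustment over all genes at 0.05). There was 1 fit per table for tumor groups, 1 per day for the fractions and 1 per fraction for the day interaction. The code was tested on simulated data. Levels are CPM of the library total, correlations used log2 CPM with a prior count of 2, and scipy 1.17.1 gave 100000 permutations within groups, whose smallest p gave adjusted values of 0.000193 for r and 0.00029 for rho.

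The members and lists were chosen with earlier results of these data known. By rule, a log2 fold change is printed for a member where its unadjusted p was under 0.05, for listed genes where called and for the receptors fixed in the rule, of which 1 is not reported here, and likeness is given for the 3 genes with the largest r and a mean of at least 10 CPM. Promoters are from RefSeq and gene positions from GENCODE, both for GRCm38; 3 of 5 members matched the promoter table. Alternatives were DESeq2 1.42.0, library totals, no filter, only the groups compared, each library left out and the replicate number as a block. The block fits left out libraries whose number did not occur in both groups. Same-numbered libraries correlated above 0.1 in every pair in 2 of 18 comparisons, CD45+ day 7 histotripsy-treated against abscopal (lowest r 0.12) and CD45+ against CD45- abscopal day 7 (0.12). The labels give no reason for a pairing.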

Additional observations from a re-analysis of the deposited data

Results flagged for a closer look

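Of 41 sets of 4 to 10 libraries with more than 3 counts of a gene, 4 held a library whose gap to its neighbor took more of the range than the Dixon limit allows, where chance alone flags about 1 in 20. Cxcl10 in CD45- control libraries of day 3 had 1 library at 17.4 CPM, with the next at 7.40 CPM. Cxcl10 in CD45- histotripsy-treated libraries of day 3 had 1 library at 44.0 CPM, with the next at 24.3 CPM. Cxcl10 in CD45+ control libraries of day 7 had 1 library at 187 CPM, with the next at 121 CPM. Ccl22 in CD45+ control libraries of day 3 had 1 library at 22.6 CPM, with the next at 42.5 CPM.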

How the results depend on the processing

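Without a filter on low counts more members were called. In CD45- cells on day 3, 1 was called between treated and control tumors (Cxcl10, log2 fold change 1.30, adjusted p = 0.00959) and 2 between treated and abscopal tumors (Cxcl9, adjusted p = 0.00485, and Cxcl10, adjusted p = 0.00119). In CD45+ cells on day 3, 1 was called between treated and control tumors (Cxcl9, -0.80, adjusted p = 0.00186). The fraction interaction of day 3 called 2 (Cxcl9, adjusted p = 0.000371, and Cxcl10, adjusted p = 0.00135) and the day interaction of the abscopal effect in CD45- cells 1 (Cxcl9, adjusted p = 0.0357). The cause was not tested. The share of all genes called without the filter is not given here, so these counts have no background beside them. Between abscopal and control tumors in CD45- cells on day 7, DESeq2 called 0 members and leaving out 1 library gave 0 to 1. Cxcl9 had adjusted p between 3.49e-11 and 0.709 over all alternatives there, and its estimate ran from 2.08 to 3.93. No alternative reversed a printed fold change of a member.

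Same-numbered libraries are not said to share an animal. Fits with the replicate number as a block kept only libraries whose number occurred in both groups. With that block, 5 members were called in each of the 6 fraction comparisons, 1 in CD45- day 7 abscopal against control tumors (Cxcl9, 2.37, adjusted p = 0.0103) and 0 in the other comparisons of tumor groups. The Cxcl9 fit used 4 of the 11 control libraries. No member's call differed from the main fit, and the share of all genes called with the block is not given here. With TMM factors in the CPM, 59 of 60 group means moved by less than 1 SD, and Ccl5 in treated CD45- libraries of day 7 (2.58 CPM, SD 0.0567) moved by more. Depth limits CD45- values most, where Cxcl16 had at most 3 counts in 24 of 36 libraries and Ccl22 in all 36.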
